A study of Mus musculus with 21 samples.

Results

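The nuclear genes for the subunits of oxidative phosphorylation were followed across 21 arrays of MIN6m9 cells, a subclone of the mouse insulinoma-derived beta cell line MIN6. Members were all genes whose symbol starts with Ndufa, Ndufb, Ndufc, Ndufs or Ndufv, is Sdha, Sdhb, Sdhc or Sdhd, or starts with Uqcr, Cox4 to Cox8 or Atp5, without the Ndufaf assembly factors and pseudogenes. This gave 85 of the 20145 named genes on the array, with 38 in complex I, 4 in complex II, 8 in complex III, 18 in complex IV and 17 in complex V. Of these, 79 lay well above background on all 21 arrays. Ndufb10 and Ndufc2 each lacked 1 array because of an outlier spot. The others were Ndufa4l2, above background on 20 arrays, Cox8b on 9, Cox7b2 on 7 and Cox8c on 0.

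Oxidative phosphorylation passes electrons from NADH and succinate through complexes I to IV of the inner mitochondrial membrane and uses the proton gradient this builds to make ATP at complex V. In beta cells, a rise in mitochondrial ATP closes potassium channels of the plasma membrane and starts insulin secretion when glucose is high. Most subunits are encoded in the nucleus, and several subunits of complex IV have a common form and a form of muscle, testis or lung.

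The study set a fatty acid treatment beside direct activation of PERK, a kinase of the endoplasmic reticulum stress response that phosphorylates eIF2alpha. The fatty acid experiment used wild-type MIN6m9 cells. They received 400 uM palmitate, a saturated fatty acid, 400 uM oleate, a monounsaturated one, or neither (n = 3 arrays each). Both treatments lasted 48 h. The PERK experiment used cells with Fv2E-PERK, a kinase domain fused to a drug-binding domain, given 1 nM AP20187, the drug that dimerises it, for 6, 12, 24 or 48 h (n = 2 arrays each). The controls were Fv2E-PERK cells given a mock treatment with ethanol and wild-type MIN6m9 cells given the same mock treatment (n = 2 arrays each). When the untreated and mock cells were harvested is not stated in the labels. No arrays of wild-type cells given AP20187 were used here, so effects of the drug without the transgene cannot be told apart from those of the kinase. Nothing in the labels says that replicates came from separate cultures, so the spread behind each p-value is that between these arrays and may be technical.

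Levels below are log2 of the processed spot signal minus the 75th percentile of the array, and the brightest probe stands for a gene. A gene rose or fell in a comparison where limma's p, after Benjamini-Hochberg adjustment across every entry in the fit, was under 0.05. The ± after a log2 change is limma's standard error. In each experiment 83 members were tested, among 21281 entries in the fatty acid experiment and 23388 in the PERK experiment. Replicates correlated at 0.978 to 0.996 across entries, which are not independent of each other. The number of arrays limits the precision. The beta cell list of 13 genes had medians of 5.54 to 5.61 with palmitate, 5.84 to 5.99 with oleate, and 5.88 and 5.99 on untreated arrays 1 and 3. Untreated array 2 had 5.57, but lacked values for Iapp and Chga, which are among the brightest of the list. Its median is therefore too low to set beside the others. Its medians were 4.06 to 4.41 over the 8 AP20187 arrays, 5.88 and 5.99 in mock Fv2E-PERK cells, and 5.96 and 6.24 in wild-type mock cells. In these bulk samples fewer cells of a type and less RNA per cell cannot be told apart. Of 7 exocrine pancreas genes 2 or 3 were above background on each array, and of 5 mesenchymal, endothelial and immune genes 1 to 3 were.

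At this scaling the subunit genes fell broadly with AP20187. At 6 h, 76 of 83 members fell and 3 rose, with a median log2 change of -0.75. Over all entries 40% were called lower and 24.9% higher at 6 h, and the median change was -0.22. At 12 h 74 members fell and 3 rose (median -0.71), where 40.5% of entries were lower and 27.2% higher. At 24 h 66 fell and 4 rose (median -0.64), where 40.4% of entries were lower and 27% higher. At 48 h 66 fell and 7 rose (median -0.60), where 34.6% of entries were lower and 27.2% higher. Cox7b2, near background, is among those that rose at each time and passed the filter on low signal only through AP20187 groups. The 63 members that fell at all 4 times came from every complex, and each tested member was called at 1 time or more. The matching shares of all entries were not counted. At the single times 61.8% to 67.7% of all entries were called, so a call at 1 time or more is not particular to the members.

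How far the family fell depended on the scaling between arrays. With arrays aligned on 7 spike-in control probes, whose RNA is added in fixed amount, the member medians were -0.08, -0.02, 0.29 and -0.15 at 6, 12, 24 and 48 h, so the direction turned at 24 h. The medians of all entries were then 0.45, 0.51, 0.72 and 0.38. Percentile and spike-in scaling each shift all entries of an array by the same amount. The gap between members and all entries is therefore the same under both by construction. Spike-in scaling called 6 members lower and 4 higher at 6 h, where 4.45% of entries were lower and 38.8% higher. At 12 h it called 8 lower and 5 higher (6.32% and 43% of entries), and at 24 h 2 lower and 18 higher (3.8% and 54.6% of entries). At 48 h it called 6 lower and 7 higher (7.33% and 35.3% of entries). The log2 median of the spike-in probes was 12.56 and 12.33 at 6 h, and 12.29 and 11.99 at 12 h. At 24 h it was 11.80 and 11.91, at 48 h 13.24 and 12.64, and in mock Fv2E-PERK cells 12.49 and 12.54. The part of these differences in the calls and directions with spike-in scaling was not tested. With quantile normalization the member medians were -0.25, -0.23, -0.30 and -0.15. The 75th percentile of the processed signal itself was 625 and 662 at 6 h and 739 and 823 at 48 h, against 391 and 463 in mock Fv2E-PERK cells. Its part in the fall of the members was not tested.

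**Figure D1:**
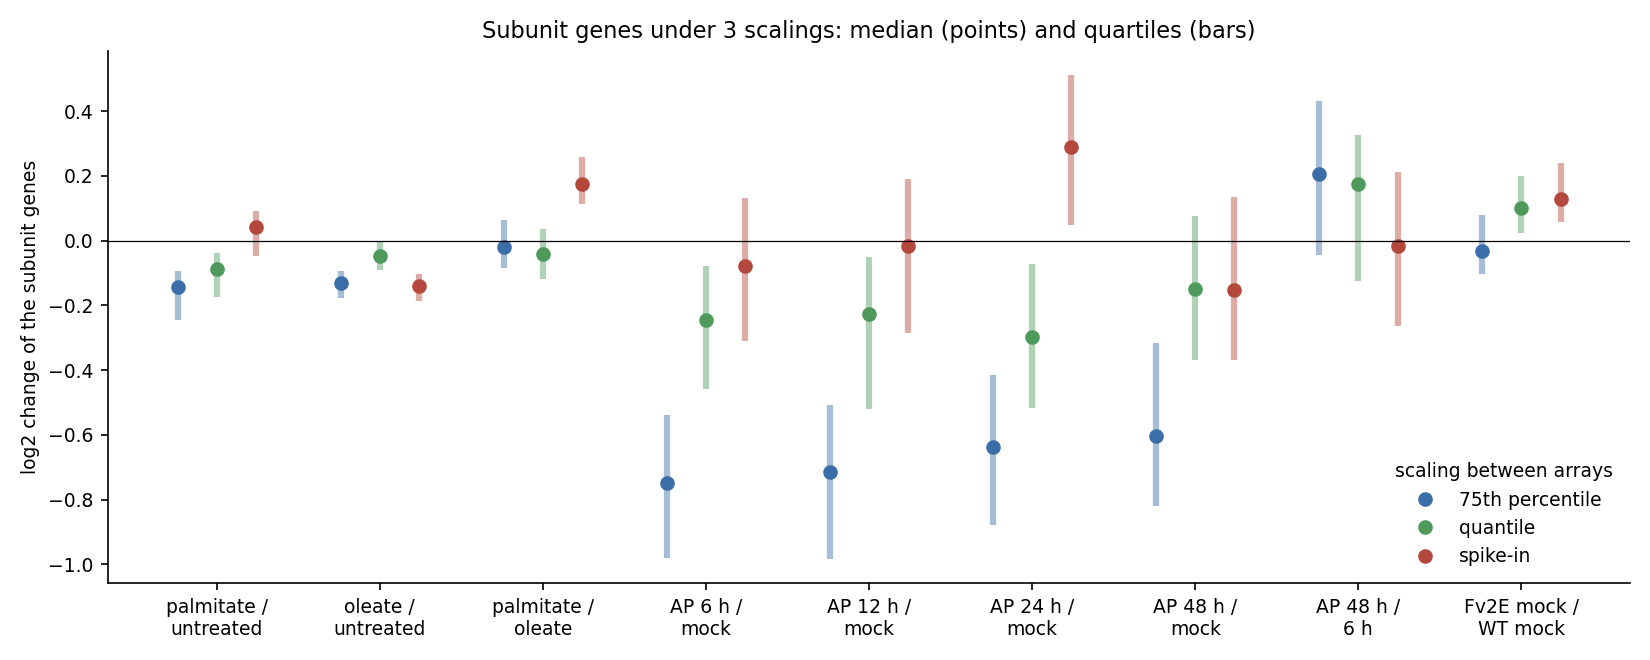
Median log2 change of the 83 tested subunit genes (points) with their quartiles (bars) in 9 comparisons, under scaling by the array's 75th percentile, quantile normalization and spike-in scaling. The medians at 6 h are -0.75, -0.25 and -0.08, and at 24 h they are -0.64, -0.30 and 0.29.

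With percentile scaling, bright entries in general fell with AP20187, and most subunit genes are bright. The medians by level given here were not taken with spike-in scaling or quantile normalization, so this fall is stated for percentile scaling only. Among entries with a mean level of 4 or more, the median change at 6 h was -0.82 for 70 members and -0.56 for the 3117 other entries. The shares called lower were 98.6% of these members and 69.2% of the other entries. At 24 h the medians were -0.69 for the members and -0.35 for the others, with 87.1% and 58.6% called lower. At 48 h they were -0.62 and -0.42, with 88.6% and 63.7% called lower. No test was made of the difference between the members and entries of like level.

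**Figure D2:**
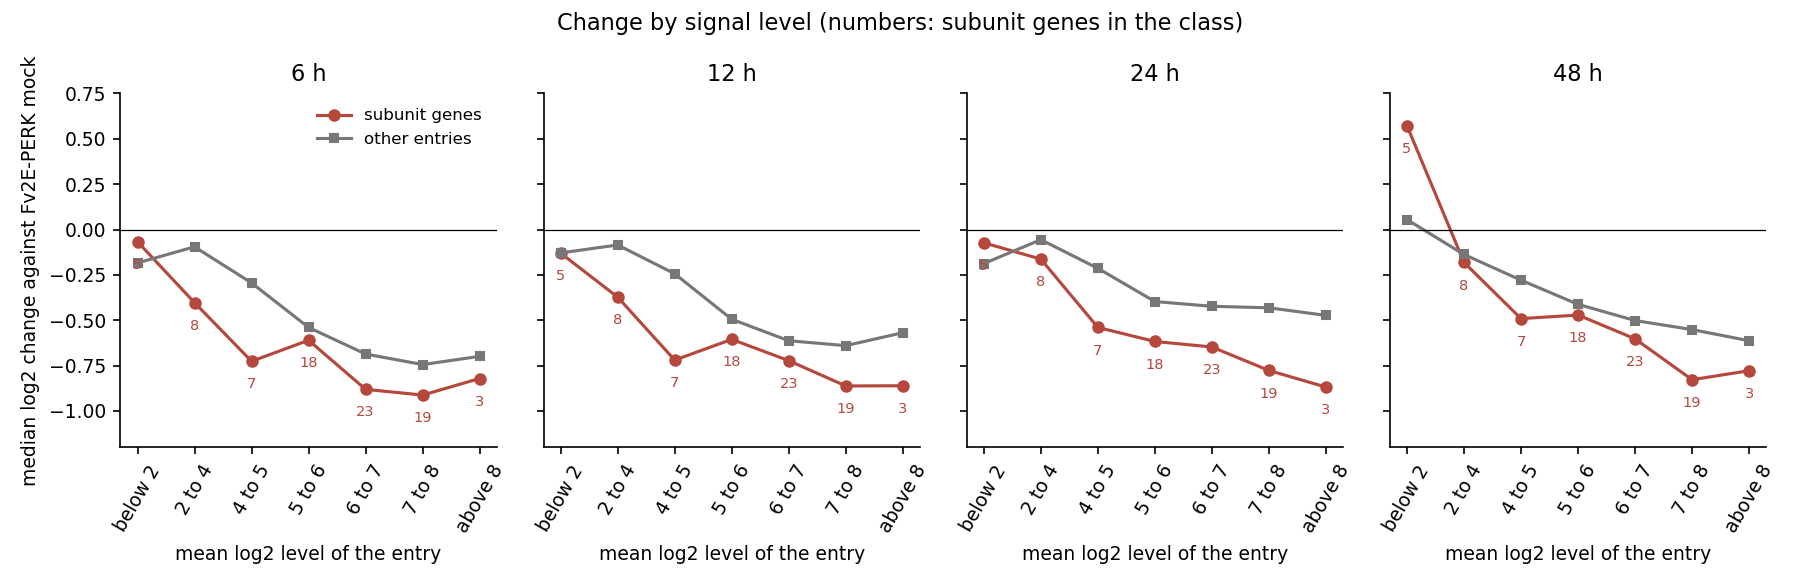
Median log2 change with AP20187 against mock Fv2E-PERK cells at 6, 12, 24 and 48 h (75th percentile scaling), for entries in 7 classes of mean log2 level. Red points are subunit genes, with their number beneath, and grey squares are all other entries tested. At 6 h the class from 7 to 8 has medians of -0.91 for 19 subunit genes and -0.74 for the other entries.

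In complex I, which takes electrons from NADH, 35 of 38 members fell and 2 rose at 6 h (median -0.74), and 29 fell and 3 rose at 48 h (median -0.60). With spike-in scaling its medians were -0.07, 0.07, 0.30 and -0.14 at 6, 12, 24 and 48 h, so the direction turned at 12 and 24 h. The 7 core subunits, which bind flavin and iron-sulfur clusters, changed less at this scaling than the 31 accessory ones. Their medians were -0.31, -0.22, -0.13 and -0.23 at 6, 12, 24 and 48 h, against -0.82, -0.71, -0.63 and -0.61 for the accessory subunits. With spike-in scaling the core medians were 0.36, 0.47, 0.80 and 0.22, and the accessory medians were -0.15, -0.02, 0.29 and -0.16. The change of scaling shifts both groups of subunits alike, so it cannot test the gap between them. This difference between the groups of subunits was not tested.

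Ndufa1, an accessory subunit needed to assemble complex I, had levels of 6.32 and 6.34 after 6 h of AP20187, 6.14 and 6.33 after 12 h, 6.19 and 6.34 after 24 h, and 6.54 and 6.46 after 48 h, against 7.78 and 7.77 in mock Fv2E-PERK cells. All 8 AP20187 arrays lay below both mock arrays. The log2 changes were -1.44 ± 0.10 at 6 h and -1.27 ± 0.10 at 48 h (limma adjusted p = 9.4e-06 and 1.8e-05). Ndufv3, a small subunit of the NADH-oxidising arm, had 6.62 and 6.62 after 6 h of AP20187, 6.22 and 6.30 after 12 h, 6.24 and 6.30 after 24 h, and 6.38 and 6.32 after 48 h, against 7.89 and 7.81 in mock cells. Its AP20187 arrays also lay apart from the mock arrays, and its changes were -1.23 ± 0.07 at 6 h and -1.50 ± 0.07 at 48 h. These values are those of its brightest probe. For 48 h against 6 h that probe changed by -0.27, while another probe of the gene changed by 0.65. With spike-in scaling Ndufa1 fell at 6, 12 and 48 h (-0.77, -0.84 and -0.82), with -0.58 at 24 h (limma adjusted p = 0.055). Ndufv3 then fell at 12, 24 and 48 h (-0.89, -0.65 and -1.05), with -0.56 at 6 h (limma adjusted p = 0.081).

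Ndufs1, the largest core subunit, which carries iron-sulfur clusters, went against its complex. Its levels were 5.33 and 5.31 after 6 h of AP20187, 5.54 and 5.64 after 12 h, 5.68 and 5.65 after 24 h, and 5.07 and 5.19 after 48 h, against 5.09 and 4.86 in mock Fv2E-PERK cells. The arrays at 6, 12 and 24 h lay above both mock arrays, and those at 48 h overlapped them. It rose by 0.34 ± 0.09 at 6 h, 0.61 ± 0.09 at 12 h and 0.69 ± 0.09 at 24 h (limma adjusted p = 0.011, 0.00045 and 0.00025). At 48 h the change was 0.15 ± 0.09 (limma adjusted p = 0.17). It was called higher at 6, 12 and 24 h under all 3 scalings.

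The pair Ndufa4 and Ndufa4l2 moved in opposite directions. Ndufa4 was first assigned to complex I and later described as a subunit of complex IV, and Ndufa4l2 is its paralog, known as a gene induced in low oxygen that lowers complex I activity. Ndufa4l2 had levels of -0.42 and -0.45 after 6 h of AP20187, -0.49 and -0.53 after 12 h, -1.28 and -1.16 after 24 h, and -2.52 and -2.20 after 48 h, against -3.11 and -3.62 in mock Fv2E-PERK cells. All AP20187 arrays lay above both mock arrays, of which 1 was above background, and 6 h was the high end of the series. It rose by 2.93 ± 0.19 at 6 h, by 2.85 ± 0.19 at 12 h, 2.14 ± 0.19 at 24 h and 1.00 ± 0.19 at 48 h. Its limma adjusted p-values were 8.1e-06, 6.6e-06, 3e-05 and 0.0023, and with spike-in scaling it rose by 3.60, 3.55, 3.07 and 1.45.

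Ndufa4 had levels of 3.75 and 3.57 after 6 h of AP20187, 3.80 and 4.15 after 12 h, 4.34 and 4.50 after 24 h, and 4.62 and 4.48 after 48 h, against 5.61 and 5.52 in mock Fv2E-PERK cells. It was lowest at 6 h, and all AP20187 arrays lay below both mock arrays. It fell by 1.91 ± 0.13 on the log2 scale at 6 h, to 0.266 times the mock level, and by 1.59 ± 0.13 at 12 h, 1.15 ± 0.13 at 24 h and 1.02 ± 0.13 at 48 h. Its limma adjusted p-values were 9.8e-06, 1.8e-05, 0.00011 and 0.00025. With spike-in scaling it fell by 1.24 at 6 h and 0.90 at 12 h, and the changes at 24 and 48 h were -0.22 and -0.57 (limma adjusted p = 0.48 and 0.082).

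**Figure D3:**
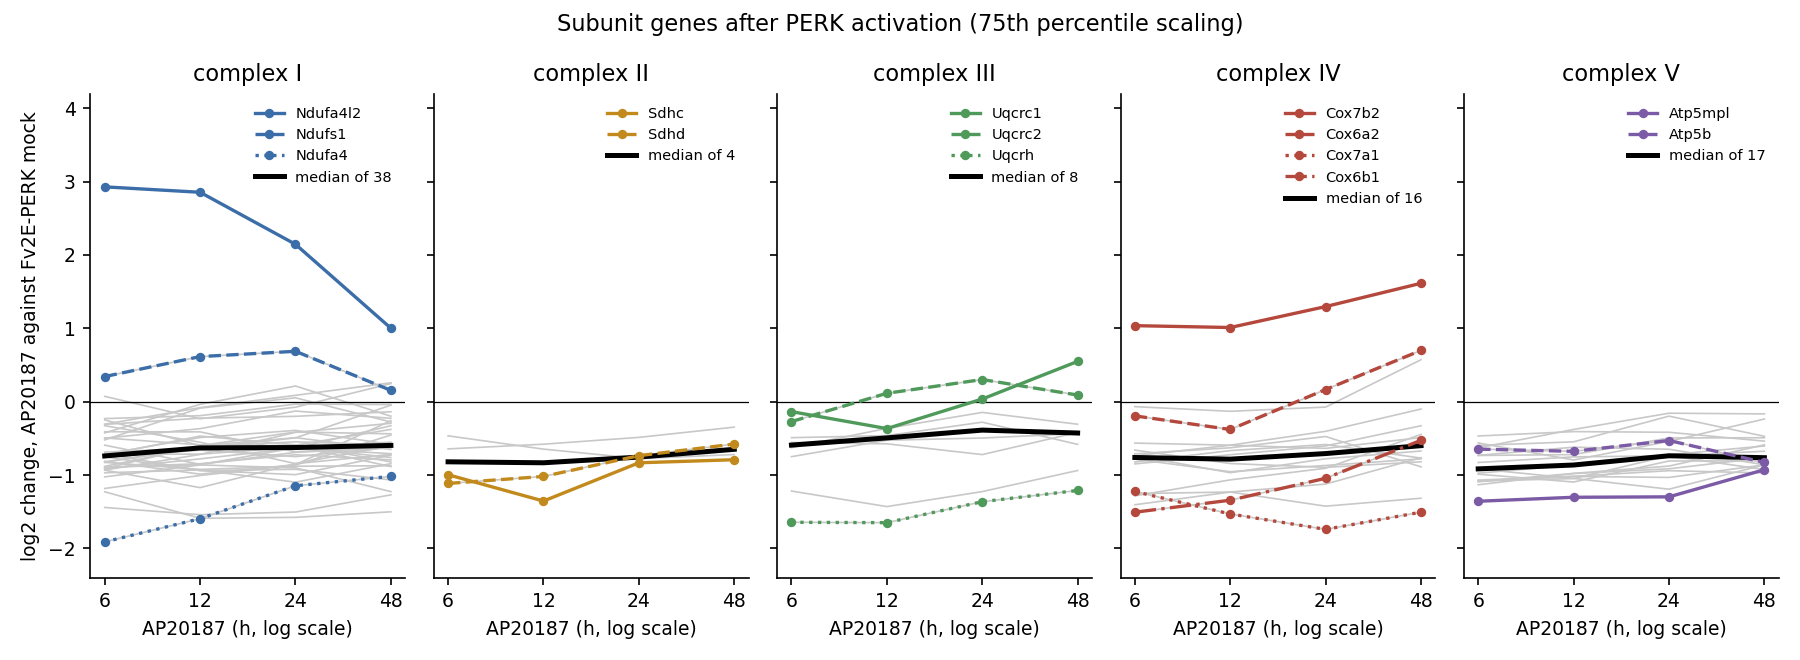
Log2 change with AP20187 against mock Fv2E-PERK cells (75th percentile scaling) for each tested subunit gene (grey lines) at 6, 12, 24 and 48 h on a log time axis, by complex, with the median in black and named genes in colour. Ndufa4l2 stands at 2.93 at 6 h and 1.00 at 48 h, Ndufa4 at -1.91 and -1.02, and the medians of complexes I to V lie between -0.92 and -0.39; Cox7b2 is near background in all groups.

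All 4 genes of complex II, which oxidises succinate, fell at each of the 4 times at this scaling, with medians of -0.82, -0.83, -0.75 and -0.65. With spike-in scaling the medians were -0.15, -0.14, 0.17 and -0.20, so the direction turned at 24 h, and 1 gene was called at 12 h and 0 at the other times. Sdhc, a membrane anchor that binds ubiquinone, had 3.47 and 3.38 after 6 h of AP20187, 3.06 and 3.07 after 12 h, 3.55 and 3.62 after 24 h, and 3.56 and 3.69 after 48 h, against 4.47 and 4.37 in mock Fv2E-PERK cells. The AP20187 arrays lay below the mock arrays and were lowest at 12 h, where the change was -1.35 ± 0.08 (limma adjusted p = 3.2e-06) and -0.66 with spike-in scaling (limma adjusted p = 0.041). Sdhd, the other anchor, fell by 1.11 ± 0.10 at 6 h and 1.02 ± 0.10 at 12 h. The flavoprotein Sdha and the iron-sulfur protein Sdhb fell by 0.46 ± 0.10 and 0.64 ± 0.09 at 6 h, and their changes were 0.21 and 0.03 with spike-in scaling.

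In complex III, which passes electrons from ubiquinol to cytochrome c, 7 of 8 members fell at 6 h (median -0.59) and 6 fell and 1 rose at 48 h (median -0.43), while the spike-in medians of 0.08 and 0.02 have the other direction. Uqcrh, the hinge protein beside cytochrome c1, had levels of 6.16 and 5.99 after 6 h of AP20187, 6.00 and 6.13 after 12 h, 6.27 and 6.43 after 24 h, and 6.51 and 6.50 after 48 h, against 7.71 and 7.72 in mock Fv2E-PERK cells. Every AP20187 array lay below both mock arrays. It fell by 1.64 ± 0.09 at 6 h and 1.21 ± 0.09 at 48 h (limma adjusted p = 3.6e-06 and 1.4e-05). With spike-in scaling it fell by 0.97, 0.95 and 0.76 at 6, 12 and 48 h, and changed by -0.44 at 24 h (limma adjusted p = 0.14). The 2 large core proteins went another way. Uqcrc2 fell by 0.27 ± 0.10 at 6 h, with changes of 0.14 and 0.40 by quantile and spike-in scaling, and rose by 0.30 ± 0.10 at 24 h (limma adjusted p = 0.046 and 0.029). Uqcrc1 had 3.53 and 3.34 at 6 h and 4.14 and 4.10 at 48 h, against 3.60 and 3.54 in mock cells. It fell by 0.37 ± 0.11 at 12 h and rose by 0.55 ± 0.11 at 48 h (limma adjusted p = 0.017 and 0.0027). Its change at 12 h was 0.33 with spike-in scaling, so its direction turned, and that at 48 h was 1.00. The Rieske iron-sulfur protein Uqcrfs1 fell by 0.56 ± 0.12 at 6 h, where spike-in scaling gave 0.11.

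In complex IV, cytochrome c oxidase, the 11 subunits without a restricted tissue range fell at each of the 4 times, with medians of -0.82, -0.95, -0.87 and -0.76. The medians were -0.15, -0.26, 0.06 and -0.31 with spike-in scaling, which turned the direction at 24 h. Cox6b1, a subunit on the intermembrane face, had levels of 2.70 and 2.71 after 6 h of AP20187, 2.73 and 3.01 after 12 h, 3.04 and 3.30 after 24 h, and 3.70 and 3.67 after 48 h, against 4.22 and 4.21 in mock Fv2E-PERK cells. The arrays at 48 h were the nearest to the mock arrays and still below them. It fell by 1.51 ± 0.11 at 6 h and by 0.53 ± 0.11 at 48 h (limma adjusted p = 1.4e-05 and 0.0039). With spike-in scaling it fell by 0.84 at 6 h and by 0.65 at 12 h, and the change at 48 h was -0.07 (limma adjusted p = 0.84). Cox4i1, the common form of the regulatory subunit IV, fell by 0.73 ± 0.07 at 6 h, and Cox6a1, the common form of subunit VIa, fell by 0.78 ± 0.08, where spike-in scaling gave -0.06 and -0.11.

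The forms of complex IV subunits known from muscle, testis or lung did not follow one course. Cox7a1, the heart and skeletal muscle form of subunit VIIa, had levels of 1.45 and 1.39 after 6 h of AP20187, 1.04 and 1.19 after 12 h, 0.78 and 1.03 after 24 h, and 1.14 and 1.14 after 48 h, against 2.61 and 2.68 in mock Fv2E-PERK cells. Its AP20187 arrays lay below the mock arrays, lowest at 24 h, where the change was -1.74 ± 0.11 (limma adjusted p = 4.3e-06). It was called lower at 12, 24 and 48 h under all 3 scalings. Cox7a2, the common form, fell by 1.40 ± 0.13 at 6 h. Cox6a2, the heart and skeletal muscle form of subunit VIa, had 2.29 and 2.38 after 6 h of AP20187, 2.18 and 2.12 after 12 h, 2.68 and 2.70 after 24 h, and 3.20 and 3.26 after 48 h, against 2.49 and 2.56 in mock cells. It lay below the mock arrays at 12 h and above them at 48 h, with changes of -0.38 ± 0.09 and 0.70 ± 0.09 (limma adjusted p = 0.006 and 0.00026); the change at 12 h was 0.32 with spike-in scaling.

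Cox4i2, the lung form of subunit IV, had -0.21 and -0.18 at 48 h, against -0.93 and -0.61 in mock Fv2E-PERK cells, and rose by 0.57 ± 0.11 (limma adjusted p = 0.0017). Cox7b2, a testis form, had -4.15 and -4.31 after 6 h of AP20187, -4.30 and -4.20 after 12 h, -4.07 and -3.87 after 24 h, and -3.76 and -3.54 after 48 h, against -5.04 and -5.49 in mock cells. It was above background on 1 of 2 arrays at 6 h, on both at 12, 24 and 48 h and on 0 mock arrays. It passed the filter on low signal only through AP20187 groups, so its calls as higher describe that choice. Because the mock signal is not well above background only a bound can be given, at least 1.08-fold higher at 24 h and at least 1.34-fold higher at 48 h, and none at 6 and 12 h. The fitted changes at 24 and 48 h, which are not the bound, had limma adjusted p = 0.0047 and 0.0017. The bound sets the mean at each time against the higher of the lowest signal well above background and the mock signal. With normexp background correction the changes of Cox7b2 were -0.16, -0.10, -0.02 and -0.08 at 6, 12, 24 and 48 h, so its direction rests on the background correction.

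All 17 genes of complex V, the ATP synthase, fell at 6 and 12 h and 15 fell at 24 and at 48 h, with medians of -0.92, -0.86, -0.74 and -0.76. With spike-in scaling the medians were -0.24, -0.17, 0.19 and -0.31, so the direction turned at 24 h. By part of the enzyme, the medians at 6 h were -0.65 for the F1 head and central stalk, -0.83 for the c ring, -0.90 for the peripheral stalk and -1.08 for the small membrane subunits. Atp5mpl, a small membrane subunit, had 5.57 and 5.50 after 6 h of AP20187, 5.44 and 5.73 after 12 h, 5.49 and 5.69 after 24 h, and 6.00 and 5.93 after 48 h, against 6.86 and 6.92 in mock Fv2E-PERK cells. Its AP20187 arrays lay below the mock arrays, with a change of -1.36 ± 0.11 at 6 h (limma adjusted p = 2e-05) and -0.69 with spike-in scaling (limma adjusted p = 0.032). Atp5b, the catalytic beta subunit, had 7.32 and 7.28 at 6 h and 7.11 and 7.14 at 48 h, against 7.98 and 7.92 in mock cells. Its change of -0.65 ± 0.08 at 6 h became 0.07 with quantile normalization and 0.02 with spike-in scaling. Atp5a1, the alpha subunit, fell by 0.47 ± 0.08 at 6 h, and its change became 0.11 and 0.20 by the same scalings.

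The members called in 1 direction under all 3 scalings are few. Quantile normalization, the other scaling, called 59%, 64.7%, 64.7% and 60.7% of entries at the 4 times. Cox7b2 is left out of the genes named next, because its mock signal was not well above background and normexp turned its direction. At 6 h Ndufa4l2 and Ndufs1 were higher, and Ndufa4, Ndufa1, Uqcrh, Cox6b1, Cox7a2 and Atp5mpl were lower. At 12 h Ndufa4l2 and Ndufs1 were higher, and Ndufa4, Ndufa1, Ndufv3, Sdhc, Uqcrh, Uqcr11, Cox6b1 and Cox7a1 were lower. At 24 h Ndufa4l2, Ndufs1 and Uqcrc2 were higher, and Cox7a1 and Ndufv3 were lower. At 48 h Ndufa4l2, Ndufa9, Ndufa10, Uqcrc1, Cox4i2 and Cox6a2 were higher, and Ndufa1, Ndufb11, Ndufv3, Uqcrh, Cox6c and Cox7a1 were lower.

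**Figure D4:**
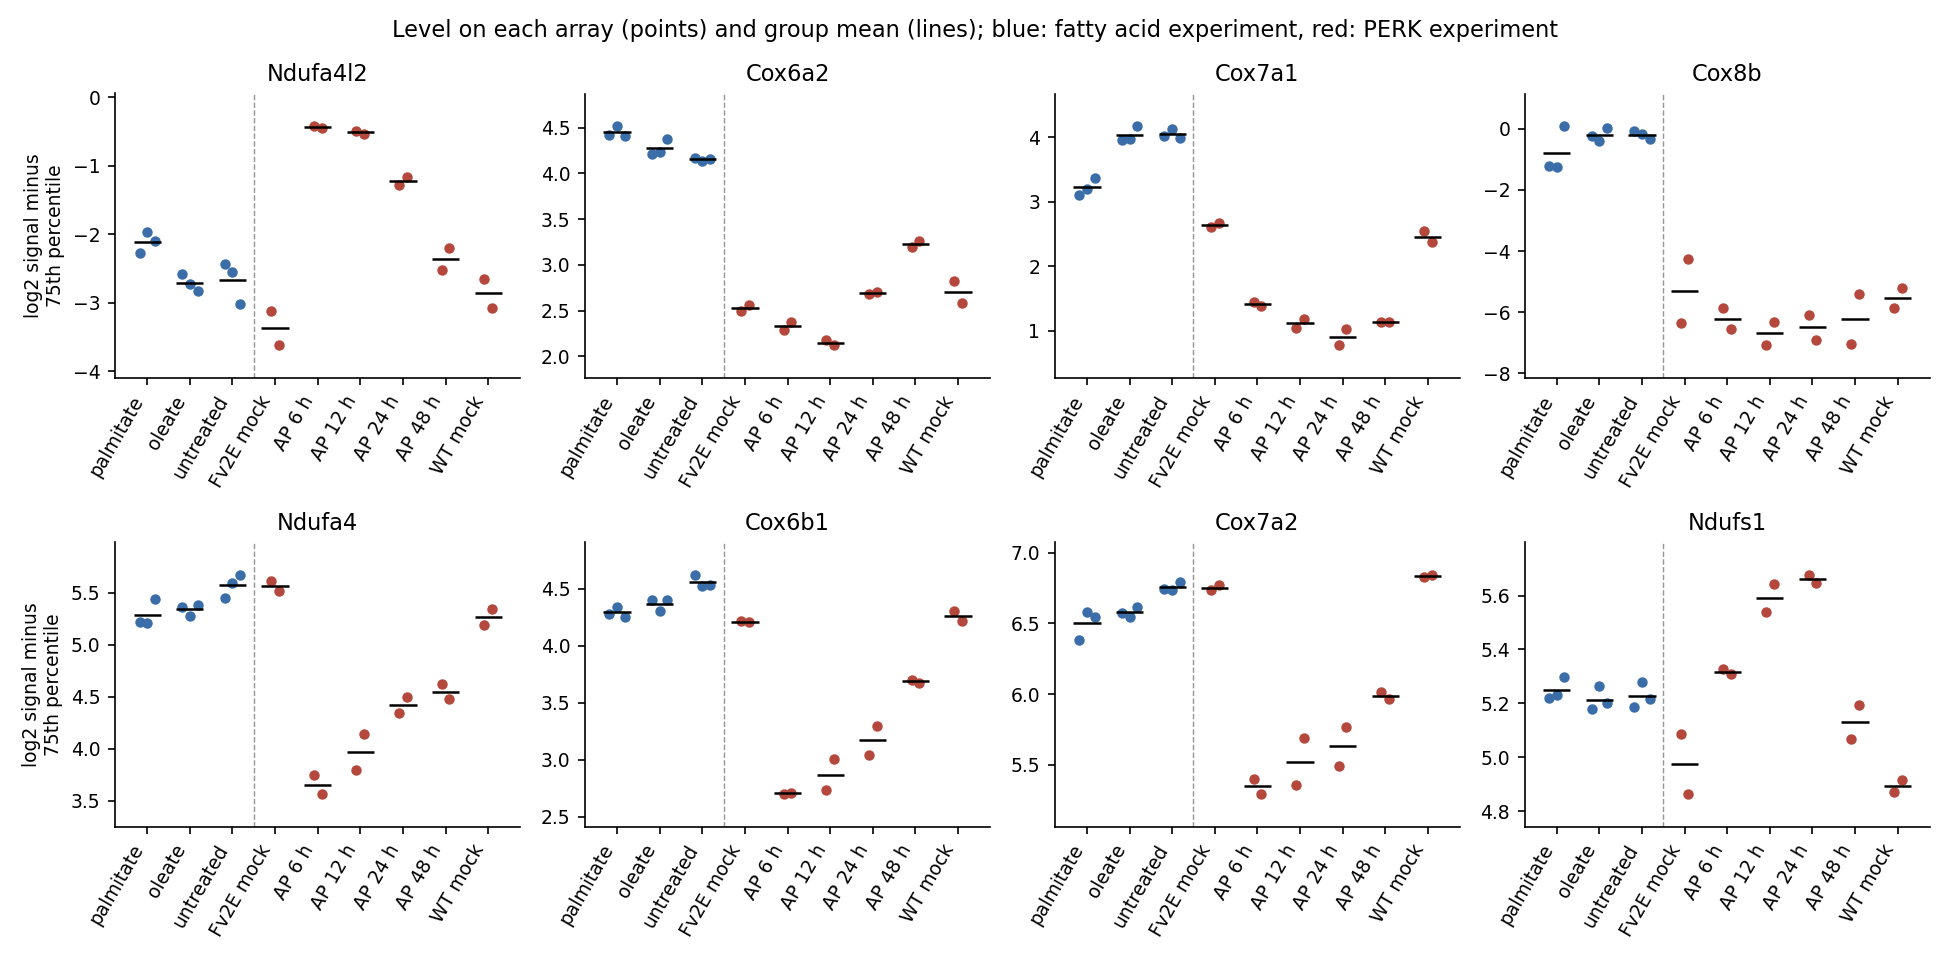
Level on each of the 21 arrays (points) and group mean (lines) for Ndufa4l2, Cox6a2, Cox7a1, Cox8b, Ndufa4, Cox6b1, Cox7a2 and Ndufs1, as log2 signal minus the array's 75th percentile; blue is the fatty acid experiment and red the PERK experiment. With AP20187, Ndufa4l2 lies at -0.45 to -0.42 at 6 h and Ndufa4 at 3.57 to 3.75, against -3.62 to -3.11 and 5.52 to 5.61 in mock Fv2E-PERK cells; the 2 experiments were not compared by a test.

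Between 6 and 48 h of AP20187 the fall eased at this scaling. At 48 h 36 members were higher and 6 lower than at 6 h, with a median of 0.20, where 33.2% of entries were higher and 27.6% lower and the median of all entries was 0.10. Of the 83 members, 39 had their lowest mean at 6 h, 19 at 12 h, 11 at 24 h and 14 at 48 h. This count was not made over all entries or with spike-in scaling. Cox6b1 changed by 0.98 ± 0.11, Ndufa4 and Cox6a2 by 0.89 each and Cox7b, another common subunit of complex IV, by 0.84 ± 0.10, while Ndufa4l2 fell by 1.93 ± 0.19. With spike-in scaling the member median was -0.01, and Cox6a2, Cox6b1 and Ndufa4 were higher and Ndufa4l2 lower, where 14.4% of entries were higher and 21.9% lower. These 4 were also called with quantile normalization, which called 60.3% of entries. The arrays at 48 h lay on another slide than those at 6 h and the mock Fv2E-PERK arrays, so slide and group cannot be told apart there. The arrays at 6, 12 and 24 h shared 1 slide with the mock Fv2E-PERK arrays. Leaving out 1 array of either group left 26 to 30 members called in this comparison, against 42 with all arrays, with 26 without either array at 48 h and 27 without array 2 at 6 h. These fits called 48.8% to 51.0% of entries, against 60.8% with all arrays.

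Palmitate gave small falls in the same family at this scaling. Against untreated cells 24 of 83 members fell and 3 rose, with a median of -0.14, where 12.6% of entries were lower and 7.42% higher, and the median of all entries was -0.05. With spike-in scaling the member median was 0.04, with 1 lower and 3 higher (0.742% and 5.55% of entries), so the family's direction turned. Palmitate array 3 lay on a slide of its own. A fit with slide as a block therefore sets that array aside, and cannot show whether the calls hold apart from slide. It called 27 members, with a median of -0.16, and 16.6% of entries, and rests on palmitate arrays 1 and 2. Without palmitate array 1, 14 members were called and 12.5% of entries, against 27 members and 20.1% of entries with all arrays. The members lower at the 75th percentile scaling were 8 in complex I, 0 in complex II, 2 in complex III, 6 in complex IV and 8 in complex V, and apart from Cox7a1 their changes lay between -0.37 and -0.21. Atp5e, the epsilon subunit of the central stalk of ATP synthase, changed by -0.37 ± 0.05 (limma adjusted p = 0.0025). Cox5a, a common subunit of complex IV, fell by 0.35 ± 0.05, and Uqcr11, the smallest subunit of complex III, fell by 0.33 ± 0.05.

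Cox7a1 fell the most with palmitate. It had levels of 3.10, 3.20 and 3.37 with palmitate, 3.95, 3.97 and 4.17 with oleate, and 4.02, 4.14 and 3.99 in untreated cells. The palmitate arrays lay below all others, and the oleate and untreated arrays overlapped. The change was -0.83 ± 0.09 against untreated and -0.81 ± 0.09 against oleate (limma adjusted p = 0.00096 and 0.0014), and it was called lower under all 3 scalings. Quantile normalization called 19.3% of entries for palmitate against untreated and 15% against oleate.

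Ndufa4l2 rose with palmitate as it did with AP20187, by less. Its levels were -2.27, -1.97 and -2.10 with palmitate, -2.58, -2.72 and -2.82 with oleate, and -2.43, -2.55 and -3.02 in untreated cells. The palmitate arrays lay above the other 6. The changes were 0.55 ± 0.16 against untreated and 0.59 ± 0.16 against oleate (limma adjusted p = 0.043 and 0.042). Ndufa4 had 5.22, 5.21 and 5.44 with palmitate, 5.37, 5.28 and 5.38 with oleate, and 5.45, 5.60 and 5.67 in untreated cells. Its palmitate arrays lay below the untreated ones and overlapped the oleate ones, with changes of -0.29 ± 0.08 against untreated (limma adjusted p = 0.046) and -0.06 ± 0.08 against oleate.

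Cox6b2, the testis form of subunit VIb, had -0.15, -0.26 and -0.40 with palmitate, -0.77, -0.88 and -0.58 with oleate, and -0.74, -1.02 and -0.78 in untreated cells. The palmitate arrays lay above the other 6, with changes of 0.57 ± 0.11 against untreated and 0.47 ± 0.11 against oleate (limma adjusted p = 0.0097 and 0.027). Cox6a2 had 4.42, 4.52 and 4.41 with palmitate, 4.21, 4.24 and 4.38 with oleate, and 4.17, 4.14 and 4.16 in untreated cells. It rose by 0.29 ± 0.06 against untreated (limma adjusted p = 0.011), and the change against oleate was 0.18 ± 0.06 (limma adjusted p = 0.084).

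**Figure D5:**
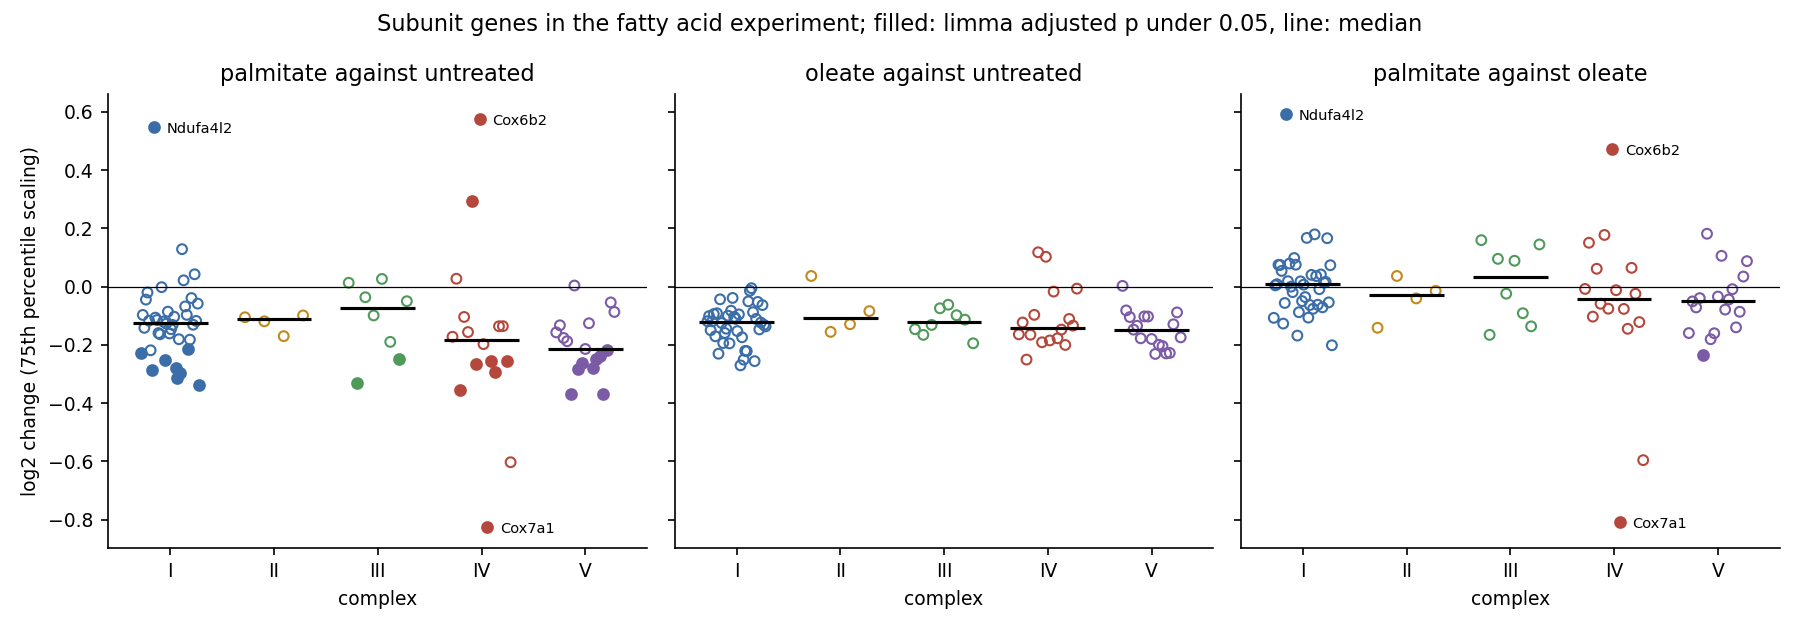
Log2 change (75th percentile scaling) of each tested subunit gene, by complex, for palmitate against untreated, oleate against untreated and palmitate against oleate; filled points have a limma adjusted p under 0.05 and lines are medians. With palmitate 24 genes are lower and 3 higher than untreated, Cox7a1 lies at -0.83 and Ndufa4l2 at 0.55, and with oleate 0 are called.

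Several of these genes are expressed in muscle, and muscle transcripts differed between the fatty acid groups. The 9 heart muscle genes had medians of -6.81 to -4.47 with palmitate, -0.49 to 0.50 with oleate and 0.11 to 0.57 in untreated cells, with 2 to 5, 8 or 9, and 8 of them above background. Their summed levels, as log2, were -0.17 to 0.75, 3.77 to 4.04 and 3.65 to 4.01 in the same order. The 20 skeletal muscle genes had medians of -0.22 and 0.08 on palmitate arrays 1 and 2, -5.99 on palmitate array 3, -5.02 to -4.77 with oleate and -5.45 to -4.94 in untreated cells. Untreated array 2, at -4.94, lacked a value for Myh1. Their summed levels were 5.02, 5.04 and 2.24 on the 3 palmitate arrays, 2.55 to 2.63 with oleate and 2.47 to 2.59 in untreated cells. A fit without palmitate arrays 1 and 2 leaves 1 palmitate array, assumed to vary like the others. Its calls therefore cannot show whether the members' changes rest on those 2 arrays. The part of muscle transcripts in the changes of Cox7a1, Cox6a2 and Cox8b was not tested.

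Cox8b, the muscle form of subunit VIII, had levels of -1.23, -1.25 and 0.08 with palmitate, -0.22, -0.40 and 0.01 with oleate, and -0.09, -0.17 and -0.34 in untreated cells. The first 2 palmitate arrays were low and the third lay above all 6 others. The change was -0.60 ± 0.33 against untreated (limma adjusted p = 0.24). In the PERK experiment Cox8b was not well above background on any of 12 arrays, with values of -7.08 to -4.27. Heart muscle medians there were -6.71 to -4.38. Cox8a, the common form, fell by 0.26 ± 0.06 with palmitate.

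Oleate called 0 of 83 members against untreated cells, where 0.836% of entries were called. The member median was -0.13, and 79 members had changes below 0 against 4 above, with 37 at an unadjusted p under 0.05. Of all entries 16.3% had such a p, and their median was -0.05. Bright entries in general lay lower, since among those with a mean level of 4 or more the median was -0.13 for 70 members and -0.09 for the 3117 others. By direction, 0.334% of entries were higher and 0.503% lower. Quantile normalization, with 0.808% of entries called, also called 0 members. So did spike-in scaling, with 0.0094% of entries higher and 0.0047% lower. The change nearest the threshold was that of Ndufs4, an accessory subunit of complex I, at -0.26 ± 0.05 (limma adjusted p = 0.067). Palmitate against oleate called 2 members higher, Cox6b2 and Ndufa4l2, and 2 lower, Cox7a1 and Atp5e, where 7.48% of entries were higher and 6.27% lower. The member median was -0.02 there. With spike-in scaling it was 0.18, with 2 members higher and 1 lower (6.44% and 0.47% of entries). Leaving out oleate array 1, palmitate array 1 or palmitate array 2 left 1 member called in this comparison, and leaving out oleate array 2 left 2. These fits called 6.35%, 8.33%, 9.35% and 6.74% of entries.

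Mock Fv2E-PERK cells differed little from wild-type mock cells in these genes. Of 83 members 2 were higher and 4 lower, with a median of -0.03, where 9.23% of entries were higher and 10.8% lower. With spike-in scaling 0 were called, where 4.83% of entries were higher and 1.36% lower, and with quantile normalization 16 were called, where 18.7% of entries were called. Ndufs4 had 5.62 and 5.65 in mock Fv2E-PERK cells, against 5.08 and 5.02 in wild-type mock cells, a change of 0.58 ± 0.10 (limma adjusted p = 0.0063). Cox5a changed by 0.38 ± 0.07. Cox6b2 had -1.01 and -0.83, against -0.18 and -0.28 in wild-type mock cells, a change of -0.69 ± 0.13 (limma adjusted p = 0.0098). Cox7a2l, which joins complexes III and IV into supercomplexes, changed by -0.57 ± 0.08, Ndufa6 of complex I by -0.45 ± 0.09 and Uqcrh by -0.30 ± 0.09. These groups lay on different slides, so slide and group cannot be told apart. A fit without 1 of these arrays leaves 1 array in a mock group, so its calls cannot show whether these differences hold. The member medians of such fits were -0.049 to 0.00025.

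Other mitochondrial genes were counted the same way. Of 11 genes for cytochrome c and inner and outer membrane carriers, 9 fell and 0 rose at 6 h (median -0.52), 10 fell at 12 h, and 9 fell at 24 and at 48 h, where 34.6% to 40.5% of entries were lower at these times. Spike-in scaling called 1 higher and 1 lower at 6 and at 12 h, 3 higher at 24 h and 0 at 48 h, with medians of 0.16, 0.10, 0.41 and -0.08. Vdac1, the outer membrane channel, fell by 1.32 at 6 h, cytochrome c itself, Cycs, by 0.52, and Cyc1, the catalytic cytochrome c1 of complex III that the symbol rule leaves out, by 0.27. Of 15 genes of the TCA cycle and pyruvate dehydrogenase, 9 fell and 3 rose at 6 h (median -0.27) and 5 fell and 3 rose at 48 h (median -0.13). Dlst of the 2-oxoglutarate dehydrogenase complex rose by 0.75 at 6 h and the malate dehydrogenase Mdh2 fell by 0.68. Spike-in scaling called 5 TCA cycle genes higher and 0 lower at 6 h (median 0.40), 11 and 0 at 24 h, and 3 and 0 at 48 h (median 0.32), so the direction of this list turned. The median of all entries turned too, to 0.45 at 6 h and 0.38 at 48 h. For both lists, spike-in scaling called 38.8%, 43%, 54.6% and 35.3% of entries higher at 6, 12, 24 and 48 h. It called 4.45%, 6.32%, 3.8% and 7.33% lower.

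Of 46 assembly factors, which build the complexes, 16 rose and 12 fell at 6 h (median -0.02), and 9 rose and 21 fell at 48 h (median -0.23). The shares of entries were 24.9% higher and 40% lower at 6 h, and 27.2% and 34.6% at 48 h. With spike-in scaling 22 were higher and 2 lower at 6 h (median 0.65), and 12 and 2 at 48 h (median 0.22), so the direction of the list turned. The median of all entries turned too, to 0.45 and 0.38. Of all entries 38.8% were then higher and 4.45% lower at 6 h, and 35.3% and 7.33% at 48 h. Cox10, which makes the haem of complex IV, rose by 2.01 at 6 h. Cox17, a copper chaperone, fell by 1.65 and Lrpprc, which stabilises mitochondrial mRNA, by 1.45. Of 13 regulators of mitochondrial biogenesis, 6 rose and 2 fell at 6 h (median 0.33), and 4 rose and 2 fell at 48 h, against 9 higher and 0 lower (median 1.00) and 6 and 0 (median 0.61) with spike-in scaling. Tfb1m, a methyltransferase of mitochondrial rRNA, rose by 1.25 and Tfam, the mitochondrial DNA packaging factor, by 0.63 at 6 h, and the coactivator Ppargc1a fell by 0.65. With palmitate 2 assembly factors rose and 13 fell, where 7.42% of entries were higher and 12.6% lower. Spike-in scaling called 2 higher and 0 lower (median 0.11), where 5.55% of entries were higher and 0.742% lower. Beside these, 1 biogenesis regulator rose and 1 fell. Palmitate also raised 1 TCA cycle gene and lowered 0, and lowered 1 carrier and raised 0, and spike-in scaling called 0 in these 3 lists. Oleate called 0 in each of these 4 lists. All 10 integrated stress response genes rose at 6, 12 and 24 h of AP20187 and with palmitate (median 1.25), 9 rose at 48 h, and 0 were called with oleate.

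Promoter windows of 300 bases around a RefSeq start, most of them upstream, were found for 69 of the 85 members. The letters GCGC, then 2 of any base, then GCGC, the core of the site of NRF1, a factor known to drive respiratory genes, stood in 27.0% of 74 member windows and 6.23% of all 32851 windows, both strands searched. CCGGAAG, the core of ETS family sites such as that of GABP, stood in 23.0% of member windows and 8.86% of all windows. The YY1 site stood in 5.41% and 0.986%. TGATGNAA, the core of the composite site of ATF4 and CHOP, stood in 0 of 74 member windows and 3.97% of all windows. Members with the NRF1 letters (19 genes) had a median change of -0.78 at 6 h, against -0.82 in the 49 without, and of -0.72 at 48 h, against -0.60. The 17 members with the ETS letters had a median of -1.07 at 6 h, against -0.73 in the 51 without, and of -0.67 at 48 h, against -0.61. These differences were not tested. A match describes the letters and not a bound site.

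The windows of 4 members are shown with matches in capitals. Ndufa4 and Uqcrh are the members that fell most at 6 h, and Sdhd and Atp5k, a small membrane subunit of complex V, are 2 of the 4 members with both the NRF1 and the ETS letters, beside Atp5h and Cox6a1. In Sdhd and Atp5k the first match is the NRF1 core (bases 172 to 181 and 201 to 210) and the second the ETS core, read on the other strand (bases 205 to 211 and 263 to 269). Uqcrh holds the ETS core at bases 241 to 247 and Ndufa4 none of the 4 motifs. No matches overlap in these windows. All come from RefSeq on GRCm38.p6 and run 5′ to 3′ along the gene, on the minus strand. They are chr6:11907401-11907700 for Ndufa4, chr4:116075021-116075320 for Uqcrh, chr9:50603800-50604099 for Sdhd and chr5:108434350-108434649 for Atp5k.
Ndufa4: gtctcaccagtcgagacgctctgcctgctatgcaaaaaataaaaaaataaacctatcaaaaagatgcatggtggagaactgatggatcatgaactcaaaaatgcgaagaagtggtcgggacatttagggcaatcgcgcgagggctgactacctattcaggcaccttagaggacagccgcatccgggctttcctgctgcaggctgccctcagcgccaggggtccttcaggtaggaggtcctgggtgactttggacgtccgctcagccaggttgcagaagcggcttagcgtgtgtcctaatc
Uqcrh: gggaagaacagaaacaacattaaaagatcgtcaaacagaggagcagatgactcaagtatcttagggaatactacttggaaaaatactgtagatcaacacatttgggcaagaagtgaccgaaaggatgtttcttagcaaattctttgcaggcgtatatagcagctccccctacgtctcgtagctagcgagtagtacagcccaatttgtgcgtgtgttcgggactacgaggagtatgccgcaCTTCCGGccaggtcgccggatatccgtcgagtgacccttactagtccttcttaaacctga
Sdhd: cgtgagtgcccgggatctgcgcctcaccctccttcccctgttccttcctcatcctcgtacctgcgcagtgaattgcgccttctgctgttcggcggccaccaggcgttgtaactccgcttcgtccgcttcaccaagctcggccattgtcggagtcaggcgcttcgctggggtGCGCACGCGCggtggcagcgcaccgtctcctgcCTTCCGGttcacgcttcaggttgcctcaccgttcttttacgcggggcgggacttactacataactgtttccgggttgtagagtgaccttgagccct
Atp5k: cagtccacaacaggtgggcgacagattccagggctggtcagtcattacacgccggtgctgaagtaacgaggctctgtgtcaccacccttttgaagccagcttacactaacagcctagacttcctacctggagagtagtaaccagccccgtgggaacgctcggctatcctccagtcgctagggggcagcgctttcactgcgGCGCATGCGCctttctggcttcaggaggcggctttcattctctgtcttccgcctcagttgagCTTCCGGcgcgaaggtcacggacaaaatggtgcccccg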

How the data were processed

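RNA of 21 MIN6m9 samples was hybridised to 1-colour Agilent arrays, 3 per fatty acid group and 2 per PERK group. The deposited scanner files give spot intensity, background-subtracted and detrended by Agilent Feature Extraction 10.7.1.1 per the file headers, with the mm9 build named for the array design. The deposited series matrix holds log2 values that the authors had centred by probe. Its direction is that of the scanner values, but the steps behind it are not stated. Its columns differed from the 75th percentile scaling by a constant of -0.49 to 0.19 in the fatty acid experiment, with 10480 to 17661 blank probes, and by under 0.01 in the PERK experiment, with 0 blank. Column medians were -0.27 to 0.35 and -0.32 to 0.33.

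Control spots and outlier flags were left out, spots of a probe were averaged, and the array's 75th percentile was subtracted from log2 of the processed signal. Probes were named through RefSeq accessions in a GRCm38.p6 table, which gave 26582 of 55681 probes 1 symbol and 29099 none. The brightest probe stood for a gene, and 22 members had more than 1 probe. The probes of Ndufv3 moved in opposite directions between 48 and 6 h. Entries well above background on every array of 1 group or more were tested with limma 3.58.1 in R 4.3.3, for each experiment apart, with Benjamini-Hochberg adjustment across every entry in the fit. The fit was tested on simulated data. Alternatives were spike-in scaling, quantile normalization, normexp on the median intensity with an offset of 50, the series matrix, no filter, the mean over probes, replicate and slide blocks, leaving out arrays, and the fit on the slide of the mock Fv2E-PERK arrays, which was chosen after seeing the data.

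Members and lists were chosen with earlier results of these data known. Named members are those with the largest called changes per complex and comparison (up to 5 each way), the core subunits and fixed paralog sets, and genes whose probes disagree. From other lists up to 3 called genes per comparison were named, with Cycs, Cyc1, Tfam and Ppargc1a. The title and source name of wild-type mock array 2 disagree on its replicate number, which was taken from the title. Replicate numbers did not pair the samples, since correlations of their deviations ranged from -0.03 to 0.04 in fatty acid arrays and from -0.01 to 0.13 in PERK arrays.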

Additional observations from a re-analysis of the deposited data

Results flagged for a closer look

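Responses at 48 h and 6 h of AP20187 differed by limma's test of the difference between these times for 42 of 83 members, or 50.6%, where 60.8% of all entries were called. Leaving out 1 array of either group left 26 to 30 members and 48.8% to 51.0% of entries called. Among the members checked for this, the log2 differences of 48 h over 6 h were 0.98 for Cox6b1, 0.89 for Ndufa4, 0.68 for Uqcrc1, 0.54 for Sdhd and 0.50 for Atp5j, a peripheral stalk subunit of complex V. They were -1.93 for Ndufa4l2 and -0.28 for Cox7a1. The arrays of these times lay on different slides, so slide and time cannot be told apart. With spike-in scaling, 4 members were called in this comparison, of which Cox6b1, Ndufa4 and Ndufa4l2 are among those just given.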

How the results depend on the processing

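With spike-in scaling the members called and their medians were 4 and 0.043 for palmitate against untreated. They were 10 and -0.078, 13 and -0.018, 20 and 0.29, and 13 and -0.15 for AP20187 at 6, 12, 24 and 48 h, 4 and -0.015 for 48 h against 6 h, and 0 and 0.13 for mock Fv2E-PERK against wild-type mock cells. For palmitate against oleate the spike-in median was 0.18. With quantile normalization the medians were -0.089 for palmitate and -0.048 for oleate against untreated, -0.25, -0.23, -0.30 and -0.15 at 6, 12, 24 and 48 h of AP20187, and 0.10 for mock Fv2E-PERK against wild-type mock cells. It called 12 members for palmitate against oleate, 52 at 6 h, 48 at 48 h and 16 for mock Fv2E-PERK against wild-type mock cells, beside 15%, 59%, 60.7% and 18.7% of all entries. Normexp called 17 (14% of entries) for palmitate against untreated, with medians of -0.087 for oleate, -0.68 at 6 h and -0.52 at 48 h. The series matrix gave 2 called (2.58% of entries) and -0.37 for palmitate against untreated, -0.069 for oleate, and 2 called (1.92%) and -0.31 for palmitate against oleate. Without the filter 9 were called (6.09%) for palmitate against untreated and 1 (3.76%) for palmitate against oleate. Without palmitate arrays 1 and 2, which leaves 1 palmitate array, the median against oleate was 0.030. Without the paralogs of restricted tissue range 1 was called for palmitate against oleate. The cause was not tested.

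Leaving out 1 array gave 14 to 27 called and medians of -0.16 to -0.11 for palmitate against untreated, 0 called and -0.15 to -0.12 for oleate, and 1 to 4 called and -0.048 to 0.014 for palmitate against oleate. It gave 73 to 76, 72 to 74, 66 to 70 and 65 to 67 called at 6, 12, 24 and 48 h, with medians of -0.77 to -0.72, -0.75 to -0.66, -0.73 to -0.56 and -0.62 to -0.60. For 48 h against 6 h it gave 26 to 30 called and 0.18 to 0.25, and for mock Fv2E-PERK against wild-type mock cells 3 to 5 called and -0.049 to 0.00025. In the order given, these fits called 12.5% to 16.6%, 0.0834% to 0.379% and 6.35% to 9.83% of entries in the fatty acid comparisons. At 6, 12, 24 and 48 h they called 55.1% to 58.6%, 58.8% to 61.1%, 59.2% to 63.2% and 50.6% to 54.9%. They called 48.8% to 51.0% for 48 h against 6 h and 12.2% to 13.4% between the mock groups.

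Single genes reversed at 6 h with spike-in scaling for Sdha (0.21), Sdhb (0.028), Atp5a1 (0.20), Atp5b (0.024), Uqcrc2 (0.40) and Uqcrfs1 (0.11), and with quantile normalization for Cox4i1 (0.011), Atp5a1 (0.11), Atp5b (0.067) and Uqcrc2 (0.14). With spike-in scaling Cox6a2 (0.32), Atp5b (0.020) and Uqcrc1 (0.33) reversed at 12 h and Atp5b (0.40) at 24 h. Cox7b2 reversed with normexp (-0.16, -0.10, -0.019 and -0.083 at 6, 12, 24 and 48 h), Ndufv3 with the mean over probes for 48 h against 6 h (0.19), and Cox6a2 with the series matrix for palmitate against oleate (-0.11). Over the named genes, 167 values lost their call, 2 gained one and 1027 kept both direction and side. The replicate block, with numbers that do not pair the samples, called 21, 0 and 3 members for palmitate against untreated, oleate against untreated and palmitate against oleate, 78, 77, 70 and 73 at 6, 12, 24 and 48 h, 39 for 48 h against 6 h and 5 for mock Fv2E-PERK against wild-type mock cells. It called 16.9%, 0.254%, 11.5%, 64.8%, 68.0%, 67.5%, 61.7%, 60.7% and 19.2% of entries in the same order. The fit on the slide of the mock Fv2E-PERK arrays called 78, 76 and 68 at 6, 12 and 24 h, beside 65.9%, 68.9% and 68.2% of entries. Low signal limits Cox7b2 and Cox8c in both experiments and Cox8b in the PERK experiment.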
